A study of Mus musculus with 30 samples.

Results

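Of the 43 genes listed for amino acid metabolism and the charging of tRNAs, 42 were measured in the embryonic mouse dorsal pancreas, among 15944 genes with a probe set of their own. The members were 23 enzymes and transporters of amino acid metabolism and 19 cytosolic aminoacyl-tRNA synthetases. They were listed by name, but with earlier results of these data known. A gene was represented by the probe set with the highest mean over the 10 arrays of its chip type, and no filter on low values was applied, so every measured member entered every test. Dars, the aspartyl-tRNA synthetase, is not analysed here, and the methionyl enzyme Mars carries its current name, Mars1.

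The pancreas of NMRI mice, an outbred stock, was followed over 5 stages, at e12.5, e13.5, e14.5, e15.5 and e16.5 (days after mating), with no genetic change and no treatment at any stage. Dorsal buds were taken without the ventral bud and combined by litter. The 1 RNA pool of each stage was labelled in 2 separate reactions, and each reaction was put on Affymetrix MG-U74v2 chips A, B and C, which gave 30 arrays, or 10 per chip. The 2 arrays of a stage therefore differ only by technical error, and stage and pool cannot be told apart. Values are log2 intensities from RMA, a method that corrects background, equalizes arrays and combines the probes of a probe set. They cannot be compared between probe sets, and the background behind them is unknown. The arrays' median values lay within 5.71 to 5.76 on chip A, 5.26 to 5.31 on chip B and 3.99 to 4.02 on chip C, and arrays of 1 pool correlated at 0.9957 to 0.9984 across probe sets. Among the members the 2 reactions of a stage had a median SD of 0.0401, and the widest gap between reactions was 0.3425, for Asns at e12.5.

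Amino acids enter cells through membrane transporters, are made or interconverted by cytosolic and mitochondrial enzymes, and are joined to their tRNAs by the aminoacyl-tRNA synthetases, a different enzyme for nearly each amino acid. Asparagine synthetase, the serine synthesis enzymes, several transporters and many cytosolic synthetases are known targets of Atf4, a transcription factor that is translated when amino acids are short or when the endoplasmic reticulum is stressed. The exocrine pancreas is known for very high rates of protein secretion, and its acinar cells begin to accumulate digestive enzymes during the days sampled here.

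Atf4 is known to bind, with C/EBP partners, at C/EBP-ATF response elements, so the promoters of the members were searched for the core TGATGNAA, and for the E-box CACGTG bound by Myc and Usf proteins, on both strands. RefSeq (GRCm38.p6) gave a window from 250 bases before to 50 bases after the gene start for 32 of the 42 members, 36 windows in all because Psat1, Bcat1, Bcat2 and Slc7a1 have 2 each. TGATGNAA occurred in 7 of these 36 windows (19.4%), each of a different gene, against 3.97% of all 32851 windows. Asns was the 1 member with this core among the 10 rising members that had a window, while 6 of 22 members that did not pass the test had it: Got1, Iars, Yars, Aars, Gars and Tars. CACGTG occurred in 5 of 36 member windows (13.9%), each of a different gene, against 7.15% of all windows. Cbs was the 1 such rising member, and Iars, Aars, Farsb and Tars were the other four. A match describes letters and not a bound site. The Asns and Cbs windows are printed 5′ to 3′ on the gene strand because these genes had the steepest rises of the list and each holds 1 of the motifs, which is in capitals. The Asns window is chr6:7693160-7693459 and the Cbs window is chr17:31637156-31637455, both on the minus strand. The core begins 23 bases before the Asns start, and the E-box begins 229 bases before the Cbs start.
Asns promoter: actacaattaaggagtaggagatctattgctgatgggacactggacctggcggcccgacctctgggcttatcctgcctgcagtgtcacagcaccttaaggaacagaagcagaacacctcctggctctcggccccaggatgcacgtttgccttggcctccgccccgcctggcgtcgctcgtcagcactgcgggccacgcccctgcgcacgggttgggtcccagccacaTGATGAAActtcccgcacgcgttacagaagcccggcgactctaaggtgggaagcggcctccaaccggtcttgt
Cbs promoter: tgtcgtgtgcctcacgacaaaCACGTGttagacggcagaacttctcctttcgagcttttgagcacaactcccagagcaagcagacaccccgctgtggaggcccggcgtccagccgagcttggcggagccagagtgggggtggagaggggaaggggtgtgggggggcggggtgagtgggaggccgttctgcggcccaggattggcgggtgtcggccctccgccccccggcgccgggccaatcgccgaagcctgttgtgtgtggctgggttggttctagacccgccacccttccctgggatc

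Next to these, 28-base windows around the core are given for 5 of the 6 members that did not pass, so that the shared letters can be seen beside the differing outcomes. This set was chosen after the values were seen. TTGCATCA and TTTCATCA are the core read on the opposite strand. In GRCm38.p6 the windows lie at chr19:43524690-43524717 (- strand) for Got1, chr13:49682127-49682154 (+ strand) for Iars, chr4:129189896-129189923 (+ strand) for Yars, chr6:55037961-55037988 (+ strand) for Gars and chr15:11399656-11399683 (- strand) for Tars.
Asns: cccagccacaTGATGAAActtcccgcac
Got1: attgcattggTTGCATCAtacaagcctc
Iars: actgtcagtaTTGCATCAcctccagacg
Yars: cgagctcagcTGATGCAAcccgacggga
Gars: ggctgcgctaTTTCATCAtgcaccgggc
Tars: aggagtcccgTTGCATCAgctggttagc

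Over the 5 stages 14 of the 42 members rose and none fell, while 28 did not pass the test. The 14 are Cbs, Asns, Gamt, Bcat2, Gatm, Slc7a5, Lars, Slc7a1, Nars, Slc1a5, Psph, Mthfd2, Odc1 and Slc3a2. The test was a limma fit of a line over embryonic day through the 5 pool means, with p-values adjusted by Benjamini-Hochberg over all 36701 probe sets and a threshold of 0.05. Changes are the line's slope times 4 days, on the log2 scale, with the SE of the fit. With the e12.5 or the e16.5 pool left out, the slope of the remaining stages was still multiplied by 4 days. Such a change projects beyond the stages used and can exceed the measured difference. The 14 members are 33.3% of those measured, against a background of 11.9% of all genes called higher, with 17.0% called lower and 28.9% called in either direction. At an unadjusted p under 0.05, 19 members were higher and 2, Eprs and Qars, were lower, against 20.5% of all genes higher and 23.6% lower. The rises were spread unevenly over the roles: 12 of the 23 enzymes and transporters rose, with a median change of 0.53, and 2 of the 19 synthetases rose, with a median change of 0.14. The median over all genes was 0.02. The mean log2 level of the enzymes and transporters was 6.82, 6.90, 7.12, 7.53 and 7.57 from e12.5 to e16.5, and that of the synthetases was 7.44, 7.44, 7.54, 7.64 and 7.55. No difference between these lists was tested. The count of rising members was 11 with the e13.5 pool left out, 12 with the e16.5 pool left out and 13 or 14 without 1 of the others. Fewer genes passed in these settings too. Of all genes 7.16% were called higher without the e13.5 pool and 4.73% without the e16.5 pool.

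**Figure D1:**
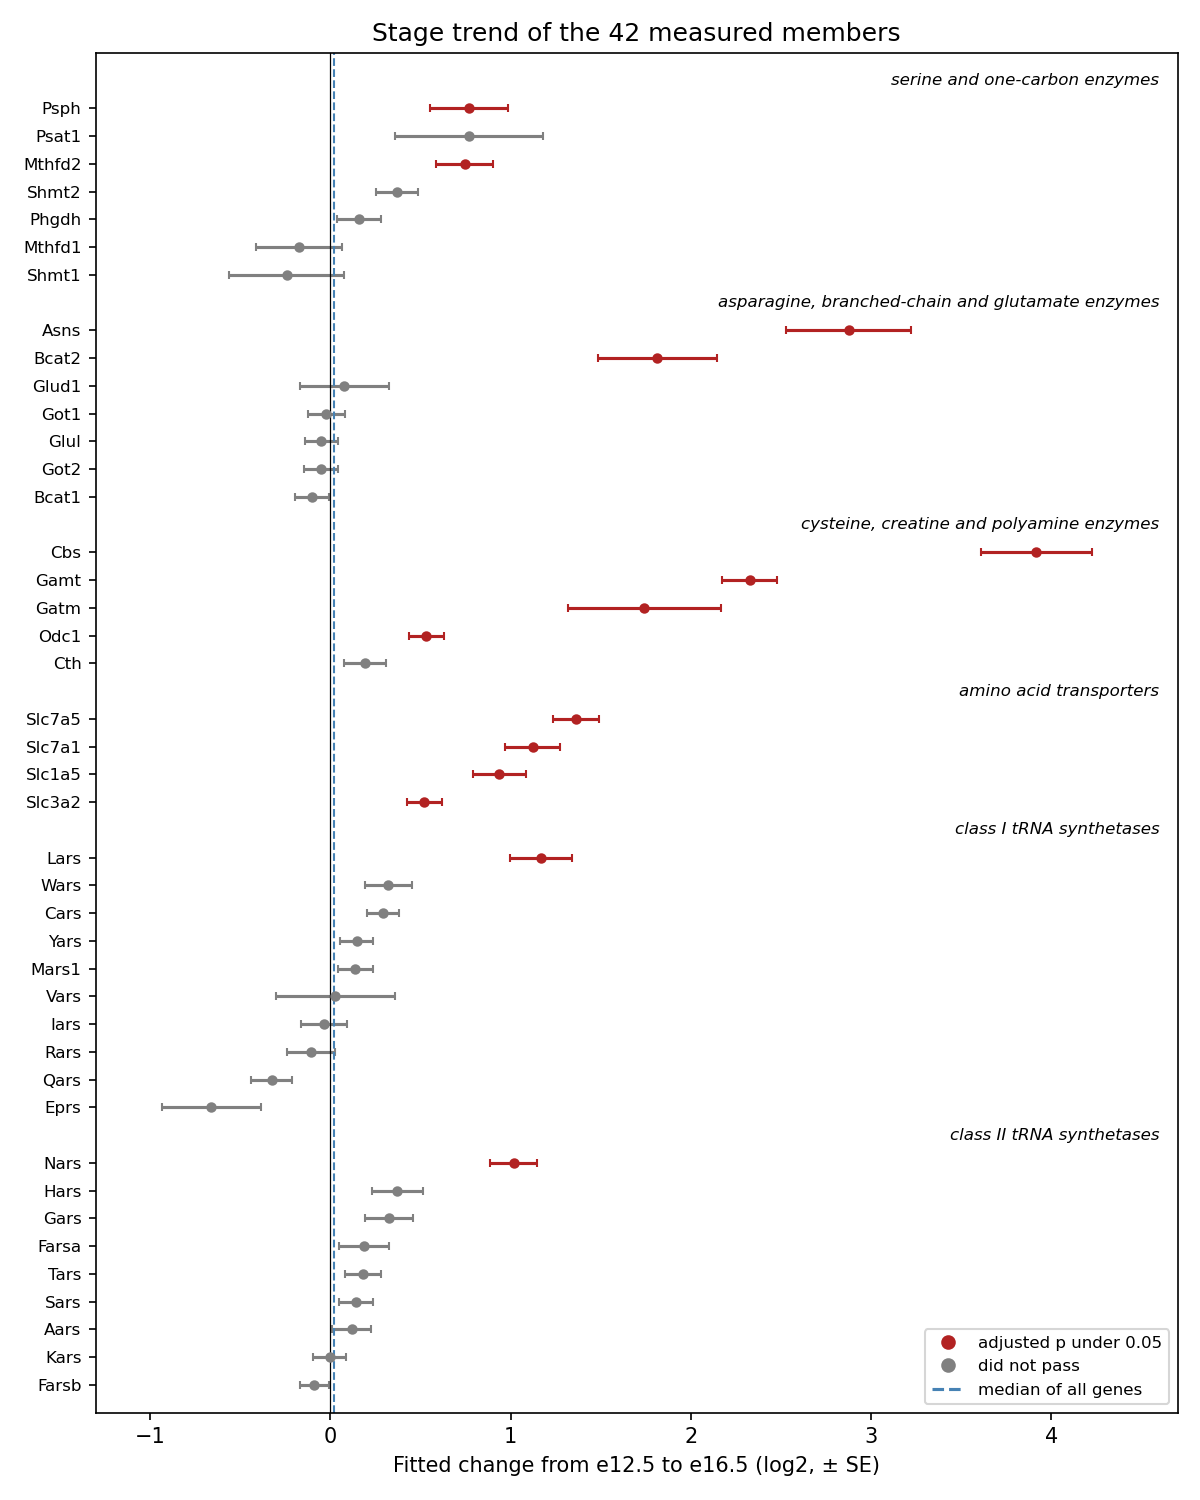
Change over the 4 days (slope of the stage trend times 4, log2 scale, horizontal axis) for each of the 42 members, grouped by role, with bars for the SE of the limma fit to 5 pool means. The 14 members that passed reach from 0.52 for Slc3a2 to 3.92 for Cbs, and among the synthetases that did not pass, Eprs lies lowest at -0.66.

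The dissected tissue held several cell types whose markers moved with stage. By the same test all 14 measured acinar markers rose, with a mean log2 level of 6.44, 7.48, 8.47, 10.39 and 11.68 over the 5 stages. Among the other lists, 4 of 11 endocrine markers rose and 2 fell, 5 of 7 duct and epithelial markers rose and 1 fell, 1 of 11 mesenchyme markers rose and 6 fell, 5 of 7 neural markers fell, 3 of 8 endothelial markers fell, 1 of 6 red cell markers rose and 3 fell, and 1 of 8 leukocyte markers rose. Of 17 cell cycle genes 5 fell, and the mean of that list was 8.04, 7.97, 7.99, 7.91 and 7.27. With the e16.5 pool left out, 12 acinar markers rose, 2 endothelial and 1 cell cycle gene fell, and no leukocyte or red cell marker rose. No endocrine or duct and epithelial marker fell there, 1 leukocyte marker fell, and the mesenchyme and neural counts were as before. No cell cycle gene fell with the e13.5 pool left out and 10 did with the e15.5 pool left out, 4 endocrine markers fell with the e12.5 pool left out, no leukocyte marker rose with the e13.5 or the e15.5 pool left out, and 1 endothelial marker fell with the e12.5, the e13.5 or the e15.5 pool left out. These settings were chosen after the values were seen. Of all genes 11.9% rose and 17.0% fell with every pool, and 4.73% and 8.14% did without e16.5. The shares were 6.38% and 12.0% without e12.5, 7.16% and 11.8% without e13.5, and 10.5% and 16.4% without e15.5. At e16.5 against e12.5, list means were 7.89 against 6.60 for endocrine and 8.27 against 7.32 for duct and epithelial markers. Means were 7.50 against 8.36 for mesenchyme, 6.26 against 7.35 for neural and 7.14 against 8.95 for red cell markers. For endothelial markers the mean was 6.69 against 6.92, and for leukocyte markers 6.68 against 5.74. The red cell mean joins genes that moved both ways, with trends from -5.52 to 1.77 and 3 of 6 above 0. It therefore does not measure the red cell content of the tissue. The part of these list shifts in the members' values was not tested. In pooled tissue, fewer cells of a type and less RNA per cell cannot be told apart.

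The 4 transporters all rose, against 11.9% of all genes. Slc7a5 (LAT1) exchanges large neutral amino acids and works as a heterodimer with the heavy chain Slc3a2 (4F2hc). Slc7a5, at chr8:121881146-121907686 (GRCm38.p6), read 8.02 and 7.84 at e12.5, 8.15 and 8.01 at e13.5, 8.57 and 8.57 at e14.5, 9.06 and 8.96 at e15.5, and 9.18 and 9.16 at e16.5. The e13.5 and e12.5 pairs overlapped slightly, and each later stage lay above the one before it. The trend was 1.36 ± 0.13 (adjusted p = 0.00132, limma), a fold of 2.57 over 4 days. Slc3a2 (chr19) read 8.50 and 8.52 at e12.5, 8.64 and 8.70 at e13.5, 8.67 and 8.70 at e14.5, 8.90 and 8.82 at e15.5, and 9.0 and 9.13 at e16.5, a smaller trend of 0.52 ± 0.10 (adjusted p = 0.0121, limma). Its e16.5 pair was the highest and its e12.5 pair the lowest. The Slc3a2 call was lost with the e12.5 pool left out (0.54, adjusted p = 0.0591, limma) and with the e16.5 pool left out (0.43, adjusted p = 0.0765, limma).

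Slc7a1 (CAT-1), the carrier of arginine, lysine and ornithine, read 5.13 and 5.12 at e12.5, 5.49 and 5.42 at e13.5, 5.81 and 5.75 at e14.5, 6.29 and 6.18 at e15.5, and 6.17 and 6.11 at e16.5, with a trend of 1.12 ± 0.15 (adjusted p = 0.00232, limma). Its level climbed to e15.5, and the e16.5 pair lay slightly below the e15.5 pair. Slc1a5 (ASCT2), which carries glutamine and other small neutral amino acids, read 9.10 and 9.15 at e12.5, 9.18 and 9.19 at e13.5, 9.36 and 9.39 at e14.5, 9.92 and 9.98 at e15.5, and 9.93 and 9.89 at e16.5, with a trend of 0.94 ± 0.14 (adjusted p = 0.00425, limma). Most of that difference lay between e14.5 and e15.5, where the step was 0.58. The probe set of Slc1a5 is of a design shared by related sequences, and 2 other Slc1a5 probe sets rose by 1.41 ± 0.20 and 0.87 ± 0.12.

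Among the enzymes of cysteine, creatine and polyamine metabolism 4 of 5 rose, against 11.9% of all genes, with a median change of 1.74. Cbs, cystathionine beta-synthase, joins homocysteine to serine in the first step of transsulfuration, and lies at chr17:31612623-31637233. Cbs read 5.54 and 5.45 at e12.5, 6.01 and 6.12 at e13.5, 6.98 and 7.08 at e14.5, 8.79 and 8.75 at e15.5, and 9.02 and 9.05 at e16.5. Each stage lay above the one before it with no overlap. The trend was 3.92 ± 0.31 (adjusted p = 0.000365, limma), a fold of 15.1, the largest of the 42. Cth, cystathionine gamma-lyase, the next enzyme of the pathway, did not pass, with a trend of 0.19 ± 0.12. Its level was below the chip's median at every stage, where a probe set may report little, although 1 other Cth probe set rose by 0.43.

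Gatm and Gamt make creatine in succession from arginine and glycine, Gatm forming guanidinoacetate and Gamt methylating it. Gamt (chr10:80258151-80261025) read 7.82 and 7.74 at e12.5, 8.15 and 8.21 at e13.5, 8.84 and 8.79 at e14.5, 9.63 and 9.67 at e15.5, and 9.97 and 9.94 at e16.5, a steady climb with no overlap between stages and a trend of 2.33 ± 0.15 (adjusted p = 0.00046, limma). Gatm (chr2:122594473-122611277) read 6.80 and 6.89 at e12.5, 6.78 and 6.78 at e13.5, 6.75 and 6.76 at e14.5, 7.61 and 7.53 at e15.5, and 8.62 and 8.64 at e16.5. It was flat up to e14.5, and the last 2 daily steps were 0.82 and 1.05. Its trend of 1.74 ± 0.42 (adjusted p = 0.0287, limma) rested on the latest pools: it was 0.87 with the e16.5 pool left out (adjusted p = 0.199, limma), and its call was also lost with the e13.5 pool left out (1.69, adjusted p = 0.0745) and with the e15.5 pool left out (1.84, adjusted p = 0.052). A further probe set of each gene rose too, by 0.88 ± 0.13 for Gamt and 1.40 ± 0.41 for Gatm. Odc1, ornithine decarboxylase, the entry enzyme of polyamine synthesis, read 7.74 and 7.82 at e12.5, 7.84 and 7.80 at e13.5, 7.91 and 7.95 at e14.5, 8.16 and 8.19 at e15.5, and 8.31 and 8.23 at e16.5. Its pairs differed little between e12.5 and e14.5 and were higher at e15.5 and e16.5, with a trend of 0.53 ± 0.10 (adjusted p = 0.0117, limma) that did not pass with the e16.5 pool left out (0.52, adjusted p = 0.0615, limma).

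**Figure D2:**
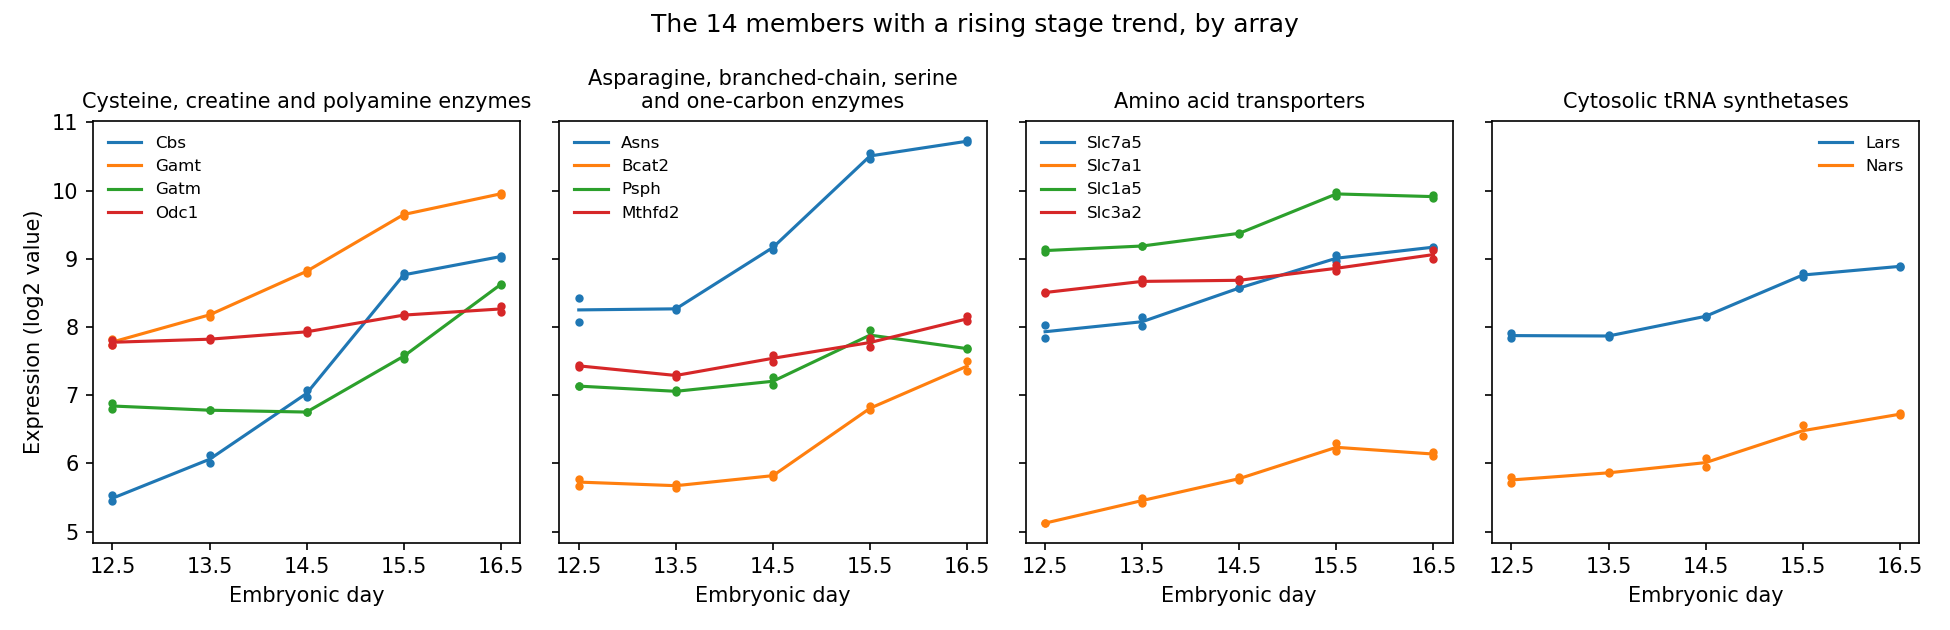
Log2 intensity (vertical axis) of the 14 rising members at each of the 5 stages (horizontal axis), 1 point per array with a line through the stage means, in 4 panels by role. Cbs climbs at every step, Gatm and Bcat2 are flat up to e14.5, and the 2 reactions of a stage lie close together.

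In the group of asparagine, branched-chain and glutamate enzymes 2 of 7 rose (28.6%, against 11.9% of all genes). The group's median change was -0.02. Asns, asparagine synthetase, makes asparagine from aspartate with glutamine as the nitrogen donor (chr6:7675165-7693209). Asns read 8.42 and 8.08 at e12.5, 8.28 and 8.25 at e13.5, 9.13 and 9.21 at e14.5, 10.46 and 10.55 at e15.5, and 10.71 and 10.74 at e16.5. The pairs at e12.5 and e13.5 overlapped, and those of e14.5, e15.5 and e16.5 were each higher than the last. The trend was 2.88 ± 0.35 (adjusted p = 0.00292, limma), a fold of 7.34. Of 4 other Asns probe sets, 2 rose, by 2.77 ± 0.40 and 0.70 ± 0.12, and 2 on chip C did not pass, with 0.02 and 0.15.

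Bcat2, the mitochondrial branched-chain aminotransferase, known to be abundant in the adult pancreas, read 5.78 and 5.68 at e12.5, 5.65 and 5.70 at e13.5, 5.85 and 5.80 at e14.5, 6.84 and 6.78 at e15.5, and 7.50 and 7.36 at e16.5. It was level to e14.5, then stepped up by 0.99 and 0.62, with a trend of 1.81 ± 0.33 (adjusted p = 0.0114, limma) that did not pass with the e16.5 pool left out (1.36, adjusted p = 0.099, limma). Its cytosolic counterpart Bcat1 had a trend of -0.10 ± 0.10 and did not pass. The aminotransferases Got1 (-0.02 ± 0.10) and Got2 (-0.05 ± 0.10), which interconvert aspartate and glutamate, did not pass, and Got1 lay below the chip median at every stage. Glud1, glutamate dehydrogenase, had stage means of 7.90, 8.37, 8.40, 8.36 and 8.01 and a trend of 0.08 ± 0.25, higher at the 3 middle stages than at either end.

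Glul, glutamine synthetase, was the 1 member with a probe set that fell. The probe set with the highest mean, of a design with relaxed probe rules, changed by -0.05 ± 0.09 and did not pass. The 3 others fell, by 0.64 ± 0.17, 0.51 ± 0.11 and 0.83 ± 0.11 on the log2 scale, and these lay below their chip's median at 5, 5 and 4 of the 5 stages. In the other direction, Qars had -0.33 ± 0.11 on the probe set used, which did not pass, while a second probe set rose by 0.68, and Psat1 had 0.77 ± 0.41 while a dim second probe set rose by 0.61. Across the list, 26 members had more than 1 probe set. Of the 8 rising members among them, 5 had another probe set that rose, and none had one that fell. The other three, Slc7a1, Psph and Slc3a2, had no other probe set that passed. Of the 18 members among them that did not pass, 5 had another probe set that rose (Psat1, Shmt2, Cth, Got2 and Qars), and Glul had probe sets that fell.

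**Figure D3:**
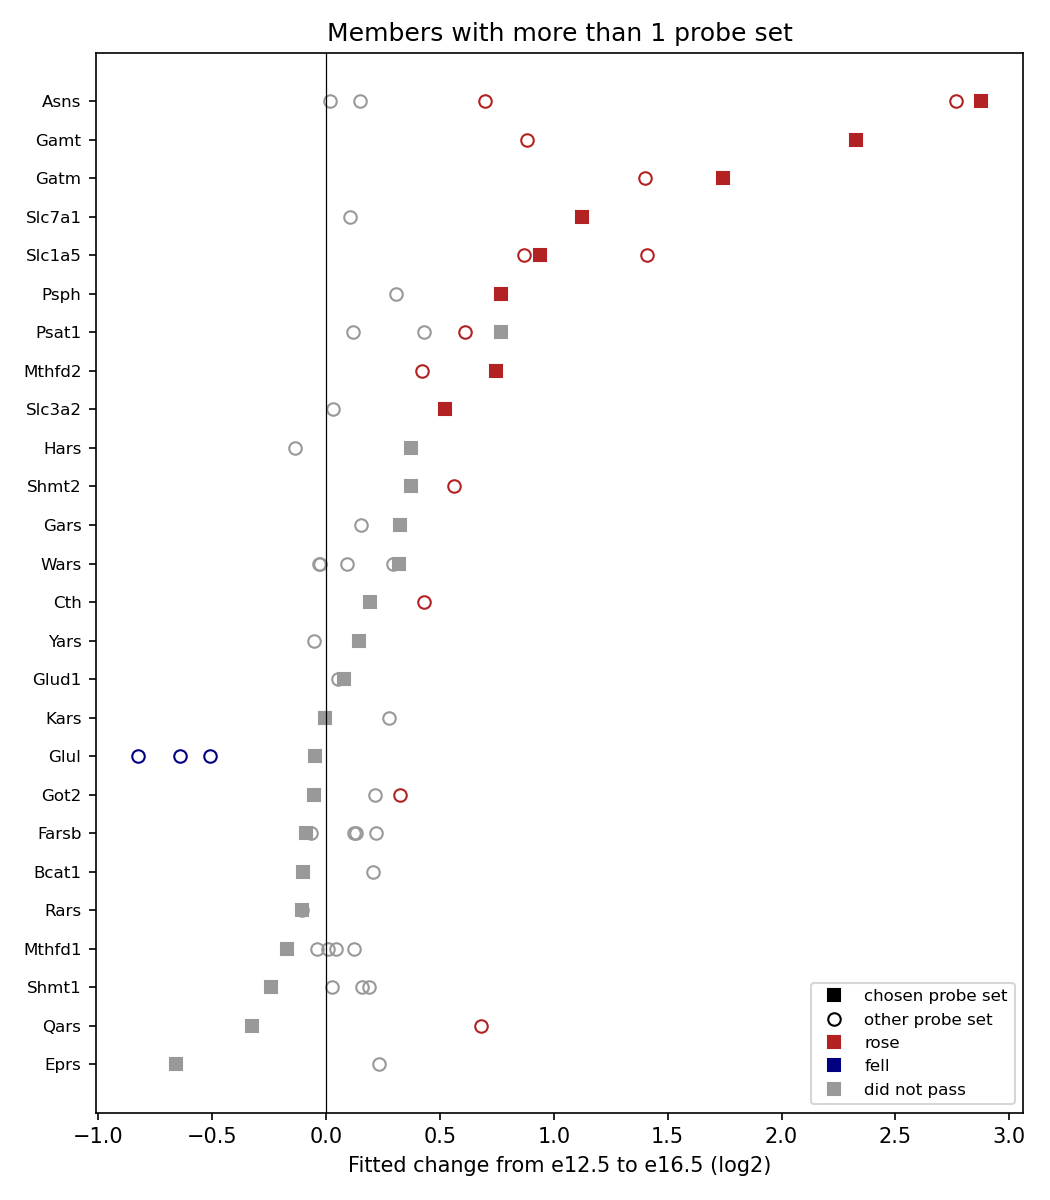
Change over the 4 days (log2 scale, horizontal axis) for every probe set of the 26 members that have more than 1. Filled squares are the probe sets used, open circles the others, red and navy those that rose and fell, and grey those that did not pass. For Glul the 3 probe sets not used lie below 0 while the one used lies near 0.

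The 7 serine and one-carbon enzymes make serine from a glycolytic intermediate and pass its side-chain carbon to folate. Among them 2 rose (28.6%, against 11.9% of all genes), and the group's median change was 0.37. Psph, the phosphatase of the last step of serine synthesis, read 7.13 and 7.14 at e12.5, 7.07 and 7.04 at e13.5, 7.15 and 7.26 at e14.5, 7.95 and 7.81 at e15.5, and 7.67 and 7.70 at e16.5. Its e15.5 pair was the highest, and the first 3 stages lay close together. The trend was 0.77 ± 0.22 (adjusted p = 0.0466, limma), near the threshold. It did not pass with the e12.5 pool left out (1.02, adjusted p = 0.0631), the e13.5 pool (0.69, adjusted p = 0.113) or the e16.5 pool (0.96, adjusted p = 0.108), or without reaction 2 of e14.5, e15.5 or e16.5. Mthfd2, the mitochondrial methylene-folate dehydrogenase, read 7.45 and 7.42 at e12.5, 7.31 and 7.27 at e13.5, 7.49 and 7.59 at e14.5, 7.83 and 7.71 at e15.5, and 8.16 and 8.08 at e16.5, lowest at e13.5 and highest at e16.5. Its trend of 0.74 ± 0.16 (adjusted p = 0.0197, limma) did not pass with the e13.5 pool left out (0.66, adjusted p = 0.0502) or the e16.5 pool (0.51, adjusted p = 0.148).

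Psat1, the aminotransferase between Phgdh and Psph (chr19:15905123-15925059), read 7.75 and 7.72 at e12.5, 8.15 and 8.17 at e13.5, 8.82 and 8.88 at e14.5, 8.94 and 9.0 at e15.5, and 8.27 and 8.31 at e16.5. It climbed to e15.5, and at e16.5 both arrays lay below both arrays of e14.5 and e15.5. A line described this course poorly: the trend was 0.77 ± 0.41 (adjusted p = 0.216, limma). With the e16.5 pool left out the trend was 1.76 and passed (adjusted p = 0.00704, limma). That value takes the slope up to e15.5 out to 4 days. The measured stage means were 7.74 at e12.5 and 8.97 at e15.5. Phgdh, the first enzyme of the serine pathway, had a trend of 0.16 ± 0.12 and lay below the chip median at every stage. Shmt2, the mitochondrial hydroxymethyltransferase, had 0.37 ± 0.12 (adjusted p = 0.0621, limma). Shmt2 passed under the 3 other scalings, at 0.40 to 0.47, and without e12.5 reaction 1 (0.43). It also passed with the pool as a random block (adjusted p = 0.0211, limma) and with the replicate block (adjusted p = 0.00791, limma). The replicate block has no term for the pool. It counts the 2 reactions of a pool as independent, so its p-values understate the spread between pools. Shmt1, its cytosolic form, read 7.12 and 7.07 at e12.5, 7.17 and 7.17 at e13.5, 7.30 and 7.35 at e14.5, 7.48 and 7.52 at e15.5, and 6.62 and 6.63 at e16.5. Its e16.5 pair lay below every other array, so that the trend was -0.24 ± 0.32 with all pools and 0.55 with the e16.5 pool left out (adjusted p = 0.036, limma). Mthfd1, the cytosolic folate enzyme, had -0.17 ± 0.24, also with its lowest pair at e16.5.

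Among the synthetases, 2 of 19 passed, both higher (10.5%, near the 11.9% of all genes that rose). None fell, against 17.0% of all genes. Changes ran from -0.66 for Eprs to 1.17 for Lars, with 13 of 19 above 0. The synthetases fall into 2 structural classes: 1 of 10 class I enzymes rose (median change 0.08) and 1 of 9 class II enzymes rose (median change 0.18). Lars, the leucyl enzyme of class I (chr18:42202298-42262237), read 7.84 and 7.91 at e12.5, 7.88 and 7.86 at e13.5, 8.15 and 8.17 at e14.5, 8.79 and 8.74 at e15.5, and 8.89 and 8.89 at e16.5. The first 2 stages overlapped and the later 3 lay above them, with a trend of 1.17 ± 0.17 (adjusted p = 0.00557, limma), a fold of 2.25. Nars, the asparaginyl enzyme of class II, read 5.71 and 5.80 at e12.5, 5.85 and 5.87 at e13.5, 6.07 and 5.95 at e14.5, 6.40 and 6.56 at e15.5, and 6.71 and 6.74 at e16.5, with every stage's pair above the one before it and a trend of 1.02 ± 0.13 (adjusted p = 0.00357, limma).

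The other 17 synthetases did not pass. Changes between 0.1 and 0.4 were seen for Hars (0.37 ± 0.14), Gars (0.32 ± 0.13), Wars (0.32 ± 0.13), Cars (0.29 ± 0.09), Farsa (0.19 ± 0.14), Tars (0.18 ± 0.10), Yars (0.15 ± 0.09), Sars (0.14 ± 0.09), Mars1 (0.14 ± 0.10) and Aars (0.12 ± 0.11). Each of these charges the tRNA of the amino acid in its name, such as histidine for Hars and glycine for Gars. Hars passed with the e12.5 pool left out (0.65), as did Wars (0.56), and Gars passed with the e16.5 pool left out (0.59) and under cyclic loess (0.46). Cars passed under the 3 other scalings, at 0.33 to 0.38, and without e12.5 or e16.5 reaction 1. Cars has 1 probe set, so averaging probe sets left its change at 0.29. Its adjusted p there was 0.0489 (limma), against 0.0545 in the main fit. With the pool as a random block, Hars (adjusted p = 0.0236), Gars (0.0389) and Cars (0.0267) passed as higher, and with the replicate block Hars (0.0148), Gars (0.0238), Cars (0.00542) and Wars (0.027) did (limma). Kars (-0.00 ± 0.09), Iars (-0.04 ± 0.13), Rars (-0.11 ± 0.13) and Farsb (-0.09 ± 0.08), the beta chain of the phenylalanyl enzyme whose alpha chain is Farsa, stayed within 0.15 of 0, and Kars lay below the chip median throughout.

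Vars, the valyl enzyme, read 8.54 and 8.48 at e12.5, 8.57 and 8.56 at e13.5, 9.0 and 8.99 at e14.5, 9.06 and 9.04 at e15.5, and 8.29 and 8.32 at e16.5, a middle plateau with an e16.5 pair below all others, so that its trend was 0.03 ± 0.33 with all pools and 0.82 with the e16.5 pool left out (adjusted p = 0.0341, limma). Eprs, the fused glutamyl-prolyl enzyme, read 6.73 and 6.59 at e12.5, 6.77 and 6.73 at e13.5, 6.89 and 6.73 at e14.5, 6.67 and 6.73 at e15.5, and 5.79 and 5.94 at e16.5. Its 8 earlier arrays lay within a narrow band, and both e16.5 arrays were lower. The trend of -0.66 ± 0.27 did not pass (adjusted p = 0.113, limma). It passed as lower with the e15.5 pool left out (-0.84, adjusted p = 0.0443), with the pool as a random block over the 10 arrays (adjusted p = 0.0242, limma) and with the replicate block (adjusted p = 0.0282, limma), and was 0.07 with the e16.5 pool left out. Qars also passed as lower under both blocks (adjusted p = 0.0225 and 0.01, limma). A second Eprs probe set, on chip A, changed by 0.23 and did not pass.

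Between the first and last stage, 8 members were higher at e16.5 than at e12.5 by at least 2-fold at an adjusted p under 0.05 (limma over the 10 arrays of a chip), and none was lower. The background was 2.21% of all genes higher, 4.25% lower and 6.46% in either direction under the same rule. At an unadjusted p under 0.05, 22 members were higher and 7 lower with no fold minimum, against 31.2% of all genes higher and 31.6% lower. These p-values measure the spread between labelling reactions only. Cbs was higher at e16.5 by 3.54 ± 0.07 (adjusted p = 1.92e-14), Asns by 2.47 ± 0.09 (adjusted p = 1.84e-09) and Gamt by 2.17 ± 0.06 (adjusted p = 1.26e-10). Gatm (1.78 ± 0.06), Bcat2 (1.70 ± 0.07) and Slc7a5 (1.24 ± 0.08) followed. Slc7a1 (1.01 ± 0.07) and Lars (1.01 ± 0.06) lay at the fold minimum. Slc7a1 was under it when arrays were centred on their median (0.99), under cyclic loess (0.96) and without e16.5 reaction 1 (0.98), and Lars was under it without e12.5 reaction 1 (0.98).

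Splitting the course at e14.5 gave 3 members higher at e14.5 than at e12.5 (background 0.47% of all genes higher and 0.47% lower) and 5 higher at e16.5 than at e14.5 (background 1.25% higher and 0.953% lower), with none lower in either by the 2-fold rule. At an unadjusted p under 0.05, limma gave 18 members higher and 2 lower in the early comparison, against 19.3% of all genes higher and 19.8% lower. In the late one it gave 20 higher and 8 lower, against 21.6% and 26.8% of all genes. Both comparisons use the e14.5 arrays. In the early one, Cbs was higher by 1.54 ± 0.07 (adjusted p = 1.3e-09), Psat1 by 1.11 ± 0.06 (adjusted p = 2.41e-07) and Gamt by 1.04 ± 0.06 (adjusted p = 4.8e-07). In the late one, Cbs was higher by 2.01 ± 0.07, Gatm by 1.87 ± 0.06, Bcat2 by 1.61 ± 0.07, Asns by 1.56 ± 0.09 and Gamt by 1.14 ± 0.06, with adjusted p from 2.44e-11 for Cbs to 2.98e-07 for Asns. Bcat2 and Gatm, called late, had early changes of 0.09 ± 0.07 and -0.09 ± 0.06, and Psat1, called early, had a late change of -0.56 ± 0.06. Gamt was under 2-fold in both comparisons when all its probe sets were averaged, at 0.63 early and 0.89 late, and early without e12.5 reaction 2 (0.998).

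The daily steps were examined after the values were seen and were not tested. For 10 of the 14 rising members (71.4%) the largest step up was between e14.5 and e15.5, against 34.8% of the 1899 rising genes. The step was 1.74 for Cbs, 1.34 for Asns, 0.99 for Bcat2, 0.83 for Gamt and 0.61 for Lars. Slc7a5 stepped most between e13.5 and e14.5, and Gatm, Mthfd2 and Slc3a2 did so between e15.5 and e16.5 (21.4%, against 29.8% of rising genes). None had its largest step between e12.5 and e13.5, where 25.6% of rising genes did. Between e15.5 and e16.5, 5 members were lower at e16.5 by at least 0.5 (11.9%, against 4.0% of all genes): Shmt1 (-0.87), Eprs (-0.84), Vars (-0.75), Mthfd1 (-0.72) and Psat1 (-0.68). These are 2 folate enzymes, 2 synthetases and 1 serine enzyme, and none is among the 14. No other probe set of 4 of these genes was lower by that much, and Vars has no other. Over the same step they read 0.10, 0.09 and -0.20 for Shmt1, 0.01 for Eprs, between -0.20 and 0.02 for the 4 of Mthfd1, and 0.10, 0.02 and 0.58 for Psat1. All 3 of Psat1, 1 of Shmt1 and 2 of Mthfd1 lay below their chip's median at every stage. Gatm and Bcat2 were higher at e16.5 by at least 0.5 (4.76%, against 1.36% of all genes). Each such step compares 1 pool with 1 other. Beside these steps, the acinar marker mean was 10.39 at e15.5 against 8.47 at e14.5 and 11.68 at e16.5 against 10.39 at e15.5. At e16.5 against e15.5, the cell cycle mean was 7.27 against 7.91, the leukocyte mean 6.68 against 5.53 and the red cell mean 7.14 against 7.80. The part of these lists in the steps was not tested, and the red cell markers moved both ways over the 5 stages.

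**Figure D4:**
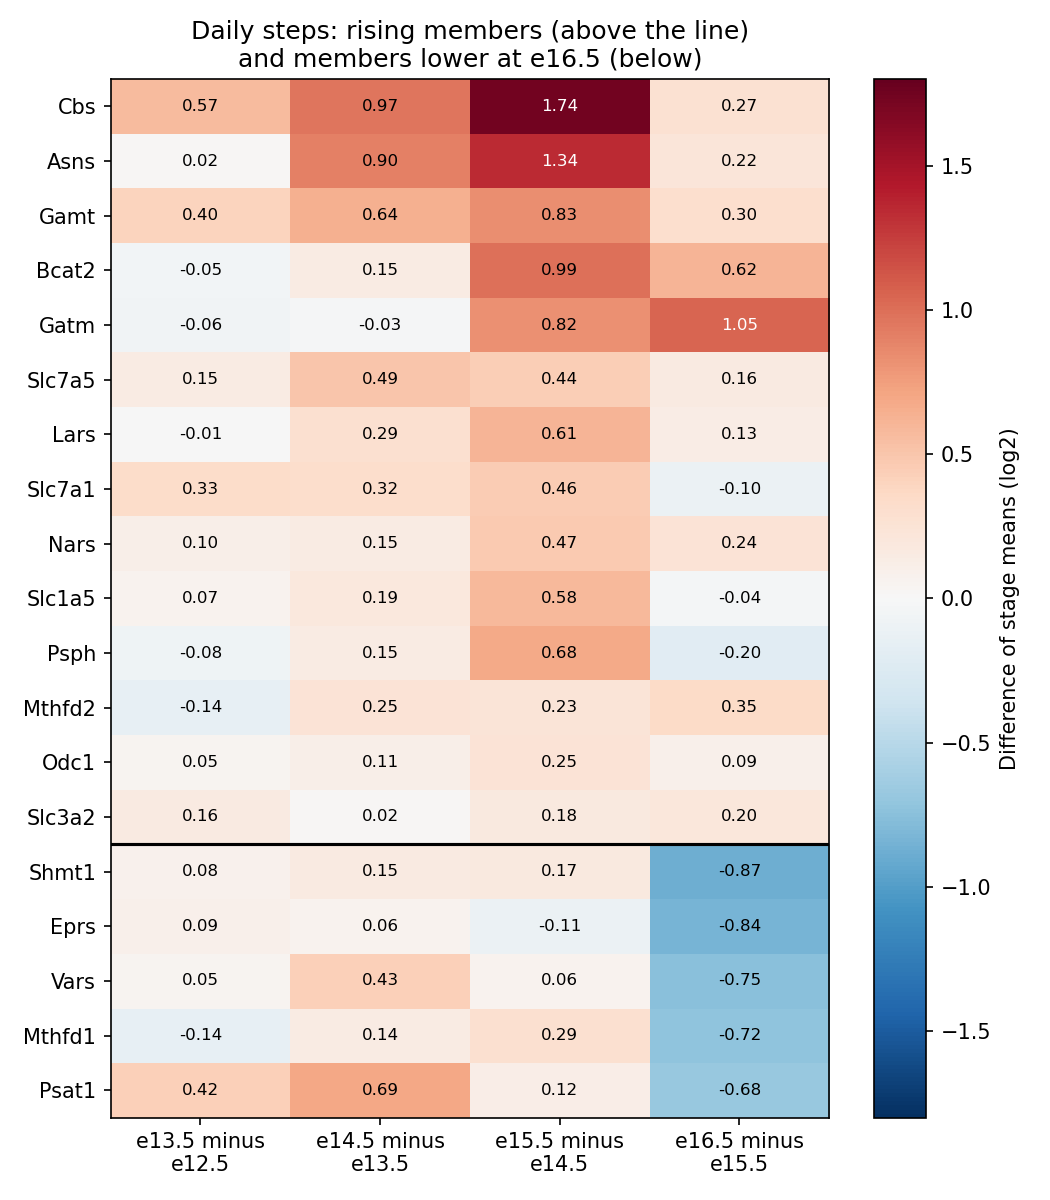
Difference between neighbouring stages (log2, later minus earlier) for each of the 4 daily steps (columns), as colour and number, for the 14 rising members above the line and 5 others below it. The e15.5 minus e14.5 column holds the largest step of 10 of the 14, and the last column holds the negative steps of Shmt1, Eprs, Vars, Mthfd1 and Psat1.

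Related lists gave other counts, which were also taken with each pool left out, a setting chosen after the values were seen. Of all genes 11.9% rose and 17.0% fell with every pool. The shares were 6.38% and 12.0% without e12.5, 7.16% and 11.8% without e13.5, and 9.73% and 15.4% without e14.5. They were 10.5% and 16.4% without e15.5, and 4.73% and 8.14% without e16.5. Of 14 measured mitochondrial synthetases, which charge tRNAs inside the organelle, 1 rose (Mars2, 0.52 ± 0.11) and 1 fell (Hars2, -0.79 ± 0.10). Of 6 partners of the cytosolic multi-synthetase complex and editing proteins, none rose and 1 fell, the scaffold protein Eef1e1 (-0.75 ± 0.20), whose call was lost with the e12.5 pool left out (-0.60) and with the e16.5 pool left out (-0.41). Another gene of the list passed as higher in each of those settings, Prorsd1 with e12.5 left out (0.81) and Dtd1 with e16.5 left out (0.78), both named after their values were seen. The scaffold proteins Aimp1 (-0.06 ± 0.11) and Aimp2 (0.11 ± 0.13) did not pass. Of 31 translation factors 1 rose and 1 fell, with a median change of -0.18. Eif2b4 had 0.47 ± 0.11 and Eif4g2 -0.41 ± 0.09, and neither passed with the e16.5 pool left out. No translation factor passed with the e13.5 or the e16.5 pool left out, 2 rose and 2 fell with the e12.5 pool left out, and 1 rose and 2 fell with the e15.5 pool left out.

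Of 37 other amino acid enzymes 16 rose (43.2%) and 3 fell (8.11%), against 11.9% and 17.0% of all genes, with a median change of 0.17. The counts were 10 and 3 with the e12.5 pool left out, 7 and 3 with e13.5 left out, and 6 and 1 with e16.5 left out. In these settings 27.0%, 18.9% and 16.2% of the list rose, against 6.38%, 7.16% and 4.73% of all genes. The falls were 8.11%, 8.11% and 2.7%, against 12.0%, 11.8% and 8.14% of all genes. Gnmt, the glycine methyltransferase that uses S-adenosylmethionine, rose by 3.88 ± 1.01 (adjusted p = 0.0361, limma), but by 1.46 with the e16.5 pool left out (adjusted p = 0.157), and it did not pass with the e13.5 pool left out (3.77, adjusted p = 0.0865). Aldh1l1, the cytosolic formyl-folate dehydrogenase, rose by 2.54 ± 0.34 (adjusted p = 0.00221, limma). Dbt, a subunit of the branched-chain ketoacid dehydrogenase that acts after Bcat2, rose by 1.76 ± 0.31 (adjusted p = 0.00641, limma) on a probe set shared by related sequences and did not pass with the e16.5 pool left out (1.47, adjusted p = 0.0681). Named after the values were seen, the other genes of that complex were Bckdhb (1.23 ± 0.19), the inhibitory kinase Bckdk (1.34 ± 0.18) and Bckdha (0.57 ± 0.13). All 3 passed, but Bckdha did not without the e12.5, the e13.5 or the e16.5 pool (0.34 without the last). Of 9 polyamine genes 1 rose, the spermidine synthase Srm (0.80 ± 0.23), and 2 fell, the antizyme Oaz2 (-0.94 ± 0.16) and Azin2 (-0.29 ± 0.08). Srm was 1.27 with the e16.5 pool left out, and the 3 polyamine calls were each lost in at least 1 alternative. Polyamine counts ranged from 0 to 2 higher and from 0 to 2 lower as single pools were left out, with 2 higher and none lower without e16.5.

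Of 28 other amino acid transporters 2 rose (7.14%) and 6 fell (21.4%), near the 11.9% and 17.0% of all genes. The counts changed as pools were left out. Rises and falls were 4 and 3 without e12.5, 3 and 4 without e13.5, 4 and 5 without e15.5, and 2 and 2 without e16.5. Slc38a3, a glutamine carrier, rose by 2.09 ± 0.23 (adjusted p = 0.00109, limma) and Slc7a4 rose by 1.33 ± 0.12 (adjusted p = 0.00046, limma). Slc38a4 fell by 1.29 ± 0.17 (adjusted p = 0.00394, limma). Named after the values were seen, its relative Slc38a2 fell by 1.01 ± 0.13 (adjusted p = 0.00217, limma). The 4 transporters of the list rose, while members of the Slc38 family moved both ways.

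Of 24 genes of the Atf4 response to amino acid or endoplasmic reticulum stress, 6 rose (25.0%) and none fell by the limma trend. Of all genes 11.9% rose and 17.0% fell. The 24 include regulators such as the eIF2 alpha kinases, and 3 were lower at an unadjusted p under 0.05 (limma). With the e16.5 pool left out 3 rose and none fell, with e12.5 left out 4 rose and 2 fell, and 1 fell with e13.5 or e15.5 left out. Atf4 itself had stage means of 8.92, 9.09, 9.36, 9.46 and 9.51 and rose by 0.62 ± 0.11 (adjusted p = 0.00906, limma), a call lost with the e12.5 pool left out (0.55, adjusted p = 0.0651). Nupr1 rose by 4.94 ± 0.33 (adjusted p = 0.000487, limma), Ddit4 by 2.03 ± 0.33 and Chac1 by 1.20 ± 0.36. Ddit4 did not pass with the e16.5 pool left out (1.70, adjusted p = 0.0686), and Chac1 was 0.23 there (adjusted p = 0.477). The Chac1 call was also lost under median centring and cyclic loess. Ddit3 (-0.12 ± 0.10) and Trib3 (0.23 ± 0.15), named after the values were seen as common markers of the response, did not pass and lay below their chips' medians at every stage. Transcript level does not measure Atf4 protein, which is controlled at translation.

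**Figure D5:**
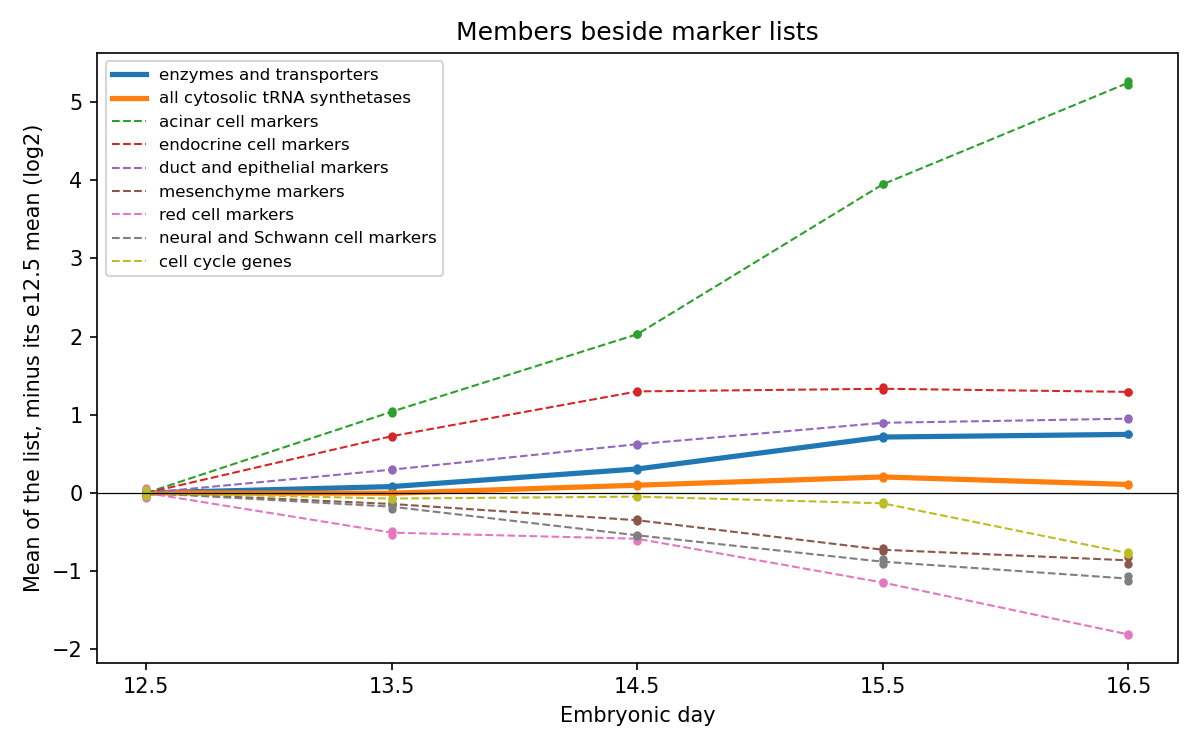
Mean log2 intensity of a list minus its own mean at e12.5 (vertical axis) at the 5 stages (horizontal axis), 1 point per array and a line through the stage means. The solid lines are the enzymes and transporters, whose mean level reaches 7.57 at e16.5 against 6.82 at e12.5, and the synthetases, whose mean stays between 7.44 and 7.64. The dashed lines are marker lists, of which the acinar markers climb most.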

How the data were processed

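Expression was measured on 30 Affymetrix arrays, from 5 stages with 1 RNA pool each, 2 labelling reactions per pool and 3 chip types. The deposited tables hold log2 values made by the authors with RMA, per the submitters' processing notes. The log base was inferred from the range of the values, and the software, its version and whether chips were normalized together are not given in the sources used here. No column of another sample was present. GEO's platform annotation, updated through RefSeq (GRCm38.p6), gave 1 symbol for 29131 of 36701 probe sets, several for 724 and none for 6846. A gene was read from the probe set with the highest mean.

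From these values, limma 3.58.1 (R 4.3.3) fitted a line over embryonic day to the 5 pool means of each probe set, and stage contrasts to the 10 arrays of each chip. Benjamini-Hochberg adjustment ran over all probe sets of the 3 chips, with a threshold of 0.05 and, for contrasts, at least 2-fold. The contrasts' p-values measure only technical spread. The number of arrays limits the precision. The fits were tested on simulated data. The alternatives were other scalings, a filter on dim probe sets, averaged probe sets, blocks, fold minimums and leaving out arrays or pools. Averaging used the probe sets of a gene on the chip of the chosen one. The random block lets the arrays of a pool correlate, with a correlation shared by all probe sets of a chip. It draws on all 10 arrays, so its p-values may understate the spread between pools. The replicate block has a term for the reaction number and none for the pool.

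Same-numbered reactions did not deviate together: between stages, correlations of their deviations from the stage means ran from -0.1764 to 0.1102. Every member is named. Values at every array are given for up to 4 members per role with the largest passing trend and for members called in a contrast. Up to 3 genes are named per other list, with exceptions stated. Shmt1, Vars and Eprs, given by array, and Aimp1 and Aimp2 lie outside these rules. Atf4 does too, and was named after its values were seen. The 2 promoters were chosen by the steepest passing rise among members with a motif. The members, lists and tests were chosen with earlier results of these data known. The TGATGNAA window of 1 member is not reported here.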

Additional observations from a re-analysis of the deposited data

How the results depend on the processing

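The count of 14 members with a rising trend was 16 after a second quantile normalization and after median centring, and 17 under cyclic loess. It was 13 without members whose probe sets have a shared or relaxed design. With a gene's probe sets on the chip of the chosen one averaged it was 15, through Cars, which has 1 probe set. Probe sets on the other chips did not enter that mean. The count was 18 with the pool as a random block and 19 with the replicate block. The replicate block counts the 2 reactions of a pool as independent, so its p-values understate the spread between pools. Those of the random block may understate it too. Without 1 pool the count ran from 11 to 14, and without 1 reaction from 13 to 16. The shares of all genes called higher are not given for the alternatives that keep every pool. A shift of the count there may be common to all genes. The scalings moved the median change of all genes by less than 0.1. The members' median change was 0.19 in the main fit. It was 0.27 after the second quantile normalization, 0.22 after median centring and 0.27 under cyclic loess. The falling count of 0 became 2 (Eprs and Qars) with the random block, 2 with the replicate block and 1 without the e15.5 pool. The replicate block changed no contrast count. Shmt1 turned to 0.55 without the e16.5 pool. Of the 14, 8 kept their call in all alternatives and 6 lost it in at least 1, which made 15 of 336 recomputed trends, and members that did not pass did so in 30, beside Shmt1 (adjusted p = 0.036, limma). Of 47 genes recomputed from the related and marker lists, the 3 largest passing changes of each list and 5 others, 21 lost their call in at least 1 alternative, 18 of them without the e16.5 pool. Without that pool 4.73% of all genes rose and 8.14% fell, against 11.9% and 17.0% with every pool. In the e16.5 against e12.5 contrast, the counts of 8 higher and 0 lower were 11 and 1 at 1.5-fold, 20 and 6 with no fold minimum, and 7 to 9 and 0 without 1 reaction. In the e14.5 against e12.5 contrast, 3 and 0 were 6 and 0 at 1.5-fold, 13 and 1 with none, and 2 higher both without e12.5 reaction 2 and with averaged probe sets, with a range of 2 to 4 over reactions left out. In the e16.5 against e14.5 contrast, 5 and 0 were 8 and 3 at 1.5-fold and 19 and 6 with none, and 1 was lower without e14.5 or e16.5 reaction 2, for a range of 0 to 1. The shares of all genes under the looser fold rules are not given here, so those counts are not a result about the members. The causes of these shifts were not tested. Signal over background is unknown, and 4 members lay below their chip's median at every stage, where a change may be understated.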
